A study of Mus musculus with 16 samples.

Results

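Muscle that breaks down protein has to dispose of amino nitrogen. The transaminase BCAT2 takes the amino group off leucine, isoleucine and valine, and the BCKDH complex then commits their carbon skeletons to oxidation. Transaminases and glutamate dehydrogenase move the nitrogen among glutamate, alanine and aspartate, and glutamine synthetase packs it into glutamine, which together with alanine carries it to other organs. Glucocorticoids promote protein breakdown in muscle, and *Glul*, the glutamine synthetase gene, is a textbook glucocorticoid-responsive gene.

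The 10 genes described here encode glutamine synthetase (*Glul*), branched-chain amino acid (BCAA) catabolism (*Bcat2*, *Bckdha*, *Bckdhb* and *Bckdk*), the alanine transaminases (*Gpt* and *Gpt2*), the aspartate transaminases (*Got1* and *Got2*) and glutamate dehydrogenase (*Glud1*). They were taken by gene symbol from the 24421 genes of the count tables, and all 10 were found and passed the filter on low counts in every comparison. Poly(A) RNA had been sequenced from the fast fiber-dominant gastrocnemius (Gas) and the slow fiber-rich soleus (Sol) of male C57BL/6 mice, in 3 wild type (WT) and 5 LSD1-mKO libraries per muscle. WT mice carried floxed *Lsd1* without CreERT2. LSD1-mKO mice were *Lsd1* flox/flox with the ACTA1-CreERT2 transgene, a Cre under the human ACTA1 promoter that acts in muscle cells as they differentiate and afterwards, so other cells of the tissue keep *Lsd1*. Both genotypes were treated alike from 8 weeks of age, with tamoxifen (75 mg/kg on 5 days) and, from the fourth of these days, the glucocorticoid dexamethasone (1 mg/kg on 7 days). According to the study's methods, the mice were fasted for some hours before tissue was taken. No muscle without dexamethasone entered these comparisons, so none of the values below is a response to the hormone.

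The libraries held 10130415 to 24576377 counted reads, and each of the 10 genes had between 339 and 42211 reads in every library. Levels are given as CPM, the usual count of a gene scaled to the size of its library, here the TMM-scaled size over all 16 libraries. *Kdm1a*, the gene of LSD1, had 40.0, 37.2 and 48.2 CPM in the WT and 13.2, 13.2, 17.7, 14.7 and 12.0 CPM in the LSD1-mKO Gas libraries, and 34.1, 34.9 and 33.4 CPM in the WT and 11.2, 9.12, 12.2, 9.15 and 12.9 CPM in the LSD1-mKO Sol libraries. Thus no LSD1-mKO library reached a WT level. On the first principal component of Gas, the third WT library had a score of 99.3 and the others -31.9 to 23.7, and its mean ribosomal protein level of 8.85 on the log2 CPM scale was the highest. The fifth LSD1-mKO Gas library (8.22) and the second WT Sol library (7.56) had the highest ribosomal protein levels of their groups. In bulk muscle, fewer cells of a type and less RNA per cell cannot be told apart. The summed CPM of 9 fast fiber markers ranged from 169022 to 205349 in WT and from 137171 to 182696 in LSD1-mKO Gas, and that of 8 slow fiber markers from 999 to 2216 and from 1639 to 2515. In Sol the fast fiber sums were 40307 to 55588 in WT and 26207 to 48123 in LSD1-mKO, and the slow fiber sums 27911 to 32240 and 23569 to 30798. The fast fiber markers did not move alike in Sol. *Mybpc2* was higher in LSD1-mKO Sol (log2 fold change 1.74 ± 0.33 SE, adjusted p = 0.0373), *Myh4* was at 2.60 ± 0.76 (adjusted p = 0.134) with 27.9 to 143 CPM in WT and 103 to 1143 CPM in LSD1-mKO, and *Myh1* was at -1.43 ± 0.54 (adjusted p = 0.238), genes that were picked here after their values had been seen. The part that these marker levels have in the results below was not tested. The α- and β-globin genes had 0 reads in all libraries, and *Alas2* was the red blood cell marker that was detected.

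The comparison of genotypes asked whether LSD1 loss alters the expression of these genes in dexamethasone-treated muscle. At an adjusted p under 0.05 in the edgeR quasi-likelihood test over all genes, 0 of the 10 genes were called in Gas and 0 in Sol, where 0.0307% and 0.967% of all tested genes were called. The deleted gene *Kdm1a* was called in Gas (-1.56 ± 0.18, adjusted p = 0.0177), but only in 2 of 8 fits with 1 library left out (adjusted p up to 0.134). In Sol it was called (-1.66 ± 0.14, adjusted p = 0.000574) and stayed so in 8 of 8. A gene not called in Gas is therefore not shown to be unchanged. In Sol 9 of the 10 were lower in LSD1-mKO, with a median log2 fold change of -0.34 against -0.01 over all genes, and in Gas 4 were lower and 6 higher, with a median of 0.10 against 0.01. At an unadjusted p under 0.05, 6 of the 10 passed in Sol, 5 lower (*Bcat2*, *Bckdha*, *Bckdhb*, *Gpt2* and *Got1*) and 1 higher (*Got2*), against 15.5% of all genes (6.84% lower and 8.66% higher). In Gas 1 of the 10 (*Got2*, higher) passed, against 9.06% of all genes, and 0 passed without the third WT library or without LSD1-mKO library 1 or 2. The Gas median was 0.20 without the third WT library and 0.020 without the fifth LSD1-mKO library. Without the second WT Sol library 8 of the 10 were lower in Sol, 3 of them at an unadjusted p under 0.05. Without the third WT and the fifth LSD1-mKO Gas libraries, 4 were still lower in Gas and 1 passed. DESeq2 called 2 of the 10 in Sol, the edgeR exact test 3 and limma voom with quality weights 4, all of them lower in LSD1-mKO, and each of these tools called 0 in Gas. These calls concerned *Bckdha*, *Bckdhb*, *Got1* and *Gpt2*. Of all 13342 genes tested in Sol, DESeq2 called 605 (193 lower), the exact test 560 (175 lower) and voom 730 (239 lower).

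**Figure D1:**
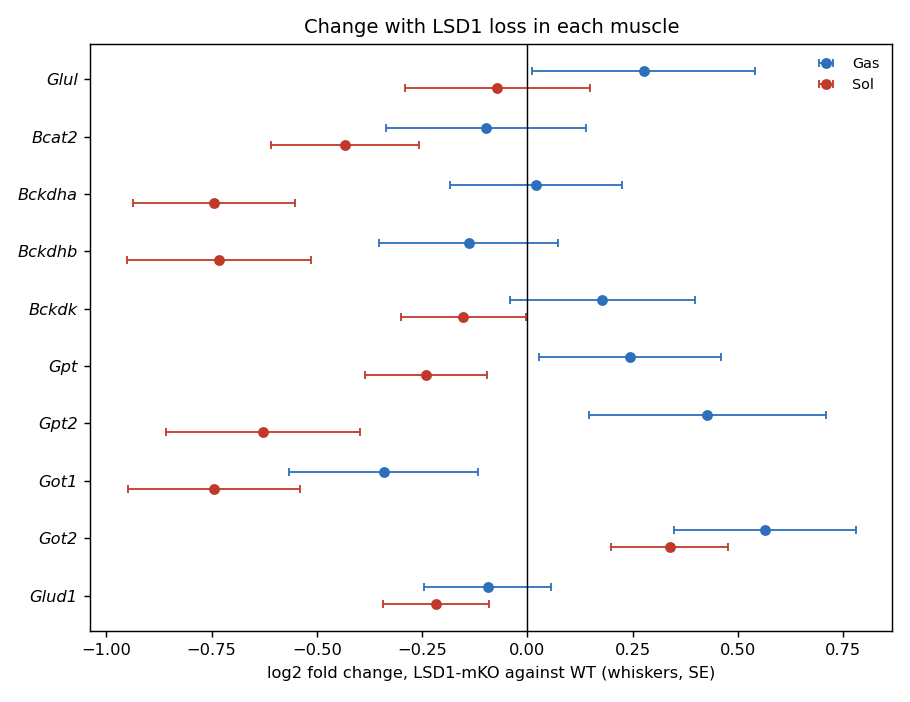
Log2 fold change of each gene between LSD1-mKO and WT (points, with SE as whiskers) in Gas (blue) and Sol (red), from the edgeR quasi-likelihood fit of each muscle. In Sol all points except that of *Got2* lie left of 0 (that of *Glul* moved to 0.14 without the second WT Sol library), with *Bckdha*, *Bckdhb* and *Got1* between -0.73 and -0.75, and no point passed the adjusted p threshold.

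Between the muscles 5 of the 10 genes were called in each genotype. In WT mice these were *Glul*, *Gpt*, *Gpt2*, *Got1* and *Got2*, 3 higher and 2 lower in Sol, where 17.0% of all genes were called (8.75% higher and 8.25% lower). In LSD1-mKO mice *Gpt* and *Got2* were called higher and *Glul*, *Gpt2* and *Bckdk* lower, against 24.5% of all genes (12.9% higher and 11.6% lower). The order of levels between genes, which is compared per kilobase of exon, also differed between muscles. *Glul* was the most abundant of the 10 in Gas, with 462 ± 156 CPM per kb (SD, n = 3) in WT, followed by *Got1* with 250 ± 29.4. In WT Sol *Got1* came first with 417 ± 38.5 CPM per kb, and *Glul* second with 152 ± 40.1. *Gpt2* had 76.8 ± 27.5 CPM per kb in WT Gas and, as the lowest of the 10, 18.0 ± 1.99 in WT Sol. With the longest transcript as length, *Got2* (206) came before *Glul* (181) in WT Sol, and *Gpt* (27.4) and *Gpt2* (27.9) were at nearly the same level.

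**Figure D2:**
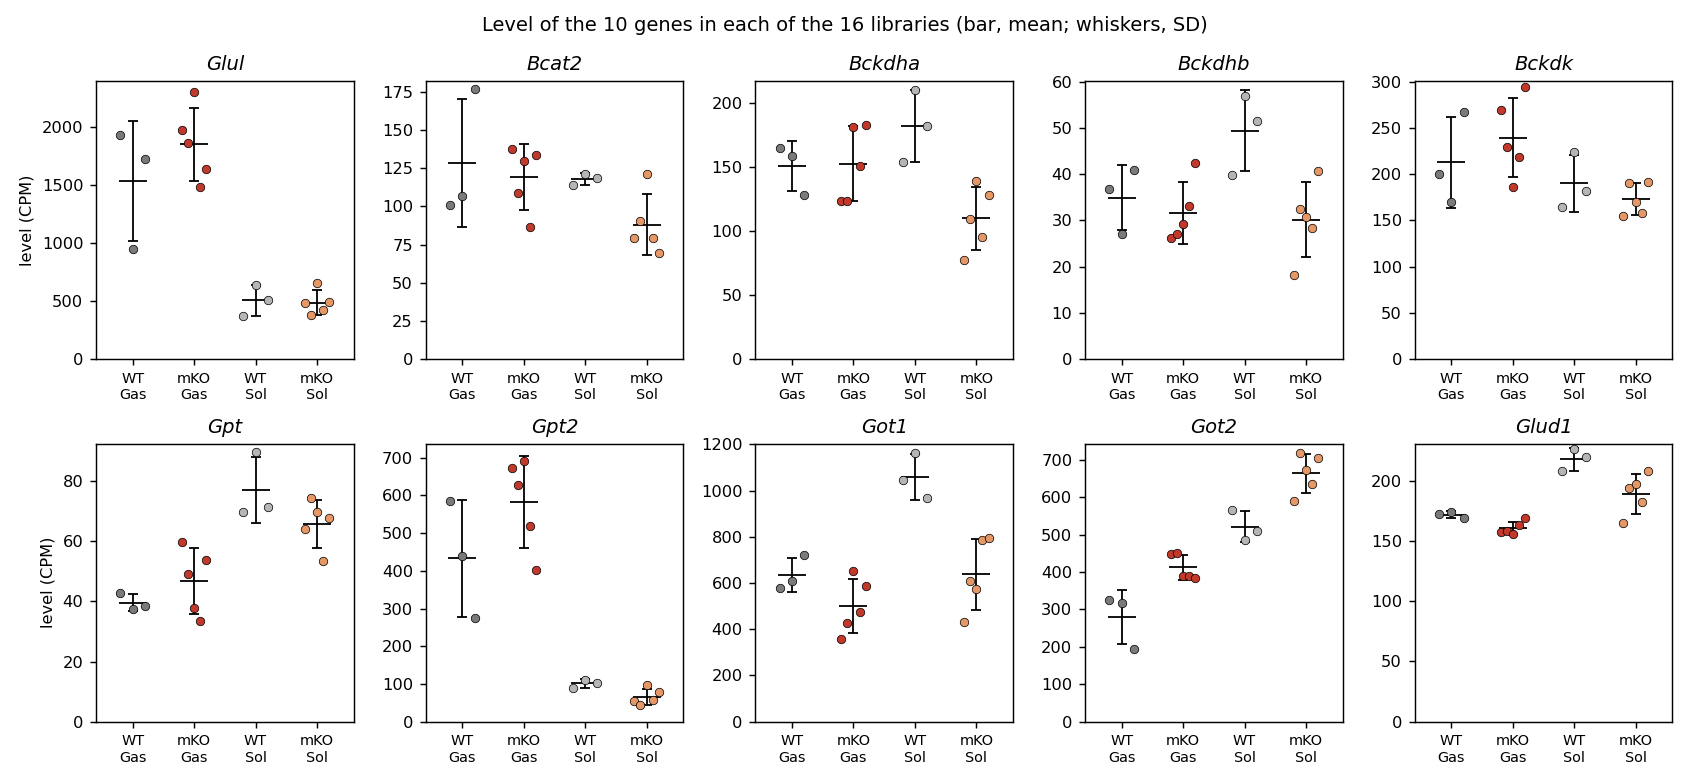
Level of each gene in CPM (vertical axes, each starting at 0) in the 16 libraries, with the mean as a bar and the SD as whiskers for WT Gas and WT Sol (n = 3 each) and LSD1-mKO (mKO) Gas and Sol (n = 5 each). *Glul* and *Gpt2* separate the muscles in both genotypes, and *Got2* is the gene whose 4 groups do not overlap.

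Glutamine synthetase separated the muscles and not the genotypes. *Glul* had 1929, 949 and 1723 CPM in WT Gas and 1974, 1865, 2299, 1481 and 1641 CPM in LSD1-mKO Gas. In Sol it had 369, 634 and 513 CPM in WT and 485, 376, 655, 426 and 489 CPM in LSD1-mKO. The lowest Gas library, the second WT, lay above the highest Sol library, while the genotypes overlapped in both muscles. *Glul* was 3.04-fold lower in Sol than in Gas of WT mice (log2 fold change -1.60 ± 0.28 SE, adjusted p = 0.000982) and 3.81-fold lower in LSD1-mKO mice (-1.93 ± 0.22, adjusted p = 1.02e-05). Between genotypes its log2 fold change was 0.28 ± 0.26 in Gas and -0.07 ± 0.22 in Sol (adjusted p = 0.698 and 0.916). Leaving out the second WT Sol library turned the Sol value to 0.14. In the annotation, exons of *Glul* overlap those of *Mir8114* and, on the other strand, *Teddm2* by 93 and 116 bp.

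Over the 16 libraries, the pattern of *Glul* was most like those of *Tmpo*, *Tsc22d3* (the gene of GILZ, the glucocorticoid-induced leucine zipper) and *Deptor* (an inhibitor of mTOR). The root mean square difference of their mean-centred log2 CPM from that of *Glul* was 0.26, 0.30 and 0.30, the smallest among 10767 genes that averaged 50 reads or more. *Tsc22d3* had a mean of 590 CPM in WT Gas and 626 in LSD1-mKO Gas, and of 175 and 164 CPM in WT and LSD1-mKO Sol. *Tmpo* and *Deptor* had means of 131 and 161 CPM in WT Gas and of 38.5 and 42.6 CPM in WT Sol. The measure spans both muscles, so the lower level in Sol that these genes share with *Glul* enters the likeness. All 16 libraries come from dexamethasone-treated mice, and the likeness is a description of them.

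The alanine transaminases showed opposite preferences for the muscles. *Gpt2*, which encodes the mitochondrial enzyme, had 585, 440 and 275 CPM in WT Gas and 672, 628, 692, 519 and 402 CPM in LSD1-mKO Gas, but 89.4, 112 and 103 CPM in WT Sol and 53.8, 43.6, 97.2, 56.8 and 79.6 CPM in LSD1-mKO Sol. It was the gene of the 10 with the largest difference between muscles, 4.28-fold lower in Sol of WT mice (log2 fold change -2.10 ± 0.31, adjusted p = 0.000252) and 8.80-fold lower in Sol of LSD1-mKO mice (-3.14 ± 0.25, adjusted p = 2.92e-07). *Gpt*, which encodes the cytosolic enzyme, had 42.8, 37.5 and 38.4 CPM in WT Gas and 59.8, 49.0, 37.6, 33.4 and 53.7 CPM in LSD1-mKO Gas. In Sol it had 69.7, 89.6 and 71.5 CPM in WT and 64.0, 74.2, 69.6, 53.3 and 67.8 CPM in LSD1-mKO. Every WT Sol library thus exceeded every Gas library of either genotype. *Gpt* was 1.94-fold higher in Sol than in Gas of WT mice (0.96 ± 0.21, adjusted p = 0.0042) and 1.41-fold higher in LSD1-mKO mice (0.49 ± 0.16, adjusted p = 0.0315). The latter call was lost without the filter (adjusted p = 0.0616) and without any 1 of the LSD1-mKO Gas libraries 3 and 4 and Sol libraries 1, 2, 3 and 5 (adjusted p up to 0.095). Per kilobase of exon, *Gpt2* was 3.74 to 9.58 times as abundant as *Gpt* in the Gas libraries and 0.306 to 0.749 times in the Sol libraries. With the longest transcript as length these ratios were 5.52 to 14.2 and 0.453 to 1.11, so that the third WT and the third LSD1-mKO Sol library exceeded 1.

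With LSD1 loss, *Gpt2* had the largest gap between the muscles of the 10 genes. LSD1-mKO Gas was at a log2 fold change of 0.43 ± 0.28 from WT (adjusted p = 0.605, and 0.20 without the third WT library), and LSD1-mKO Sol at -0.63 ± 0.23 (adjusted p = 0.228), and the genotypes overlapped in both. The difference of these effects, Sol minus Gas, was -1.04 ± 0.38 in the interaction test (adjusted p = 0.942). *Gpt* had 0.24 ± 0.22 in Gas and -0.24 ± 0.14 in Sol. Because *Gpt2* differs most between the muscles, the 250 bases before its start are shown, from chr8:85492326-85492575 of GRCm38.p6 on the + strand (RefSeq), with the GC box GGGCGG, searched on both strands, in capitals.
Gpt2: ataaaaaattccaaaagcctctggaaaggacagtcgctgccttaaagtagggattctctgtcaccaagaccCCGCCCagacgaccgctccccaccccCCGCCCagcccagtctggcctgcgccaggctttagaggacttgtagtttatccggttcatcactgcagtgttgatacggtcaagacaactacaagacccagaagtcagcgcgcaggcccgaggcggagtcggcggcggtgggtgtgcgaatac
The GC box occurs 2 times here, 179 and 153 bases before the start, and in 32.7% of the 32851 windows of this length before the starts of all genes.

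**Figure D3:**
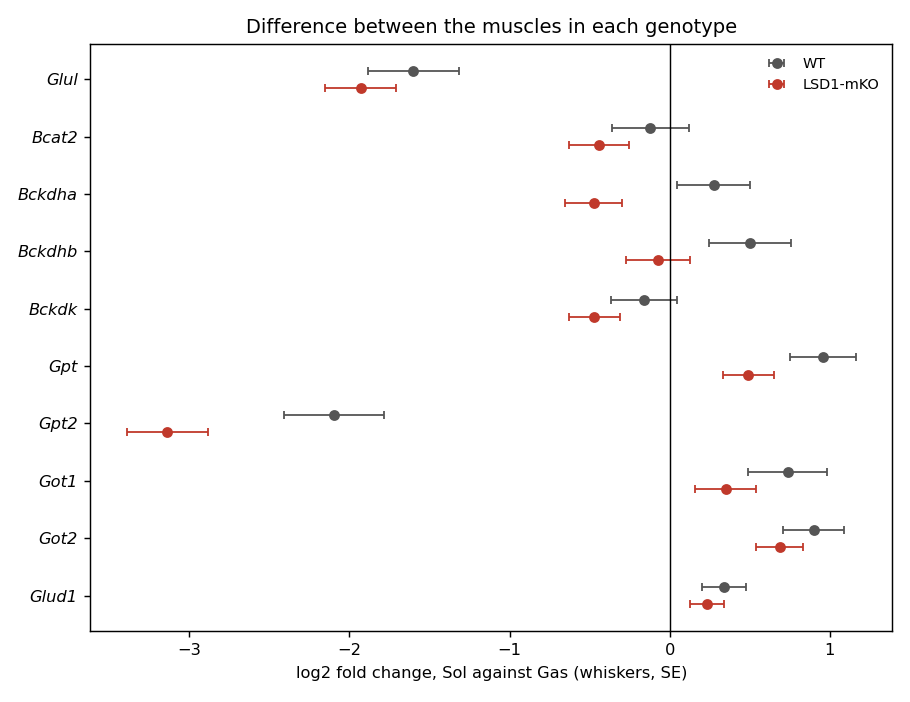
Log2 fold change of each gene between Sol and Gas (points, with SE as whiskers) in WT (grey) and LSD1-mKO mice (red), from the fit of all 16 libraries. *Glul* and *Gpt2* lie far to the left in both genotypes, at -1.60 and -2.10 in WT and at -1.93 and -3.14 in LSD1-mKO, and *Gpt*, *Got1* and *Got2* lie to the right.

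In Sol the genotypes did not overlap for either aspartate transaminase, with *Got1* lower and *Got2* higher in LSD1-mKO. Such groups occurred for 10.8% of all genes in Sol, and neither gene was called there or in Gas by the quasi-likelihood test. *Got1*, the cytosolic enzyme, had 1046, 1162 and 968 CPM in WT Sol and 431, 608, 572, 786 and 793 CPM in LSD1-mKO Sol. In Gas it had 578, 608 and 719 CPM in WT and 360, 428, 651, 475 and 589 CPM in LSD1-mKO. All LSD1-mKO Sol libraries were below all WT Sol libraries, while the genotypes overlapped in Gas. The log2 fold change of *Got1* was -0.74 ± 0.20 in Sol (adjusted p = 0.111) and -0.34 ± 0.22 in Gas (adjusted p = 0.605). DESeq2 called it lower in Sol with an adjusted p of 0.0159.

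*Got2*, the mitochondrial enzyme, had 325, 317 and 195 CPM in WT Gas and 447, 451, 389, 390 and 383 CPM in LSD1-mKO Gas. In Sol it had 567, 485 and 511 CPM in WT and 591, 717, 672, 636 and 705 CPM in LSD1-mKO. In both muscles every LSD1-mKO library lay above every WT library, and every Sol library lay above every Gas library. Between genotypes it differed by a log2 fold change of 0.56 ± 0.22 in Gas (SE, adjusted p = 0.521) and by 0.34 ± 0.14 in Sol (adjusted p = 0.273), and neither was called by any tool or setting that was run. Without the third WT Gas library, which had the lowest *Got2* level, the Gas value was 0.37. The groups of 6.95% of all genes in Gas and of 10.8% in Sol did not overlap. Of the 10 genes these were *Got2* (higher) and *Glud1* (lower) in Gas, and *Got2* (higher), *Bckdha* and *Got1* (lower) in Sol. Groups that do not overlap stay apart when libraries are left out, so these genes could not drop out. Without the 3 libraries of high ribosomal protein level no other gene of the 10 joined them, while the shares of all genes without overlap were 25.02% and 21.9%. *Got2* overlaps the exons of *Gm45760* by 217 bp on the other strand and has an annotated pseudogene, *Got2-ps1*.

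Between muscles, *Got2* was 1.87-fold higher in Sol than in Gas of WT mice (log2 fold change 0.90 ± 0.19, adjusted p = 0.00359) and 1.61-fold higher in LSD1-mKO mice (0.69 ± 0.15, adjusted p = 0.0024). *Got1* was 1.67-fold higher in Sol of WT mice (0.74 ± 0.25, adjusted p = 0.0493). This call was kept in 3 of 8 alternative settings, over which the adjusted p reached 0.0786. The settings that lost it included RLE scaling, no filter and the exact test (adjusted p = 0.0509, 0.0528 and 0.0555), and leaving out the libraries of high ribosomal protein level. The call was also lost without any 1 of 10 libraries (each of the 6 WT libraries, and LSD1-mKO Gas 2 and 4 and Sol 2 and 3), with adjusted p up to 0.122. In LSD1-mKO mice *Got1* was at 0.35 ± 0.19 (adjusted p = 0.194).

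Since *Got1* and *Got2* lay on opposite sides of WT, their ratio within each library was computed per kilobase of exon, a measure chosen after their values had been seen. The ratio of *Got2* to *Got1* was 0.296, 0.275 and 0.143 in WT Gas and 0.654, 0.554, 0.315, 0.432 and 0.343 in LSD1-mKO Gas. In Sol it was 0.285, 0.220 and 0.278 in WT and 0.722, 0.621, 0.619, 0.426 and 0.468 in LSD1-mKO. The LSD1-mKO libraries exceeded the WT libraries in both muscles, with means of 0.460 ± 0.143 against 0.238 ± 0.083 in Gas and 0.571 ± 0.122 against 0.261 ± 0.036 in Sol (SD, n = 5 and 3). With the longest transcript as length the ratios were at most 0.457 in WT and at least 0.487 in LSD1-mKO libraries. The ratio rests on the values described above and no test was made of it. The ratios of *Gpt2* to *Gpt*, *Bckdhb* to *Bckdha*, *Bcat2* to *Bckdha* and *Glul* to *Glud1* were also computed. Each of them overlapped between the genotypes in both muscles. How often ratios of other gene pairs separate the genotypes was not computed.

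**Figure D4:**
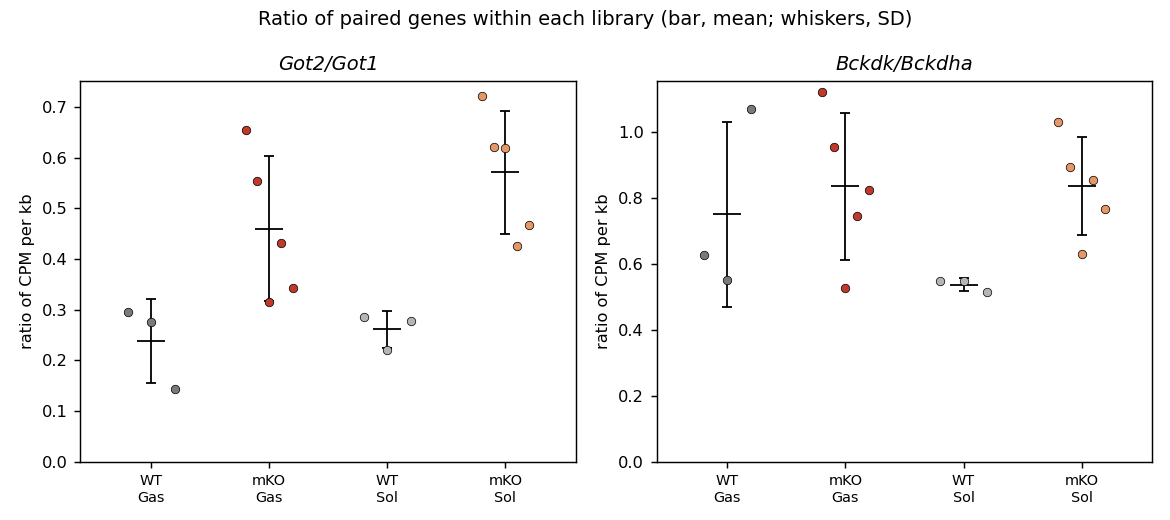
Ratio of *Got2* to *Got1* (left) and of *Bckdk* to *Bckdha* (right) in CPM per kb of exon within each library, with the mean as a bar and the SD as whiskers. The *Got2* to *Got1* ratio is at most 0.296 in the WT libraries and at least 0.315 in the LSD1-mKO libraries, and the *Bckdk* to *Bckdha* ratio separates the genotypes in Sol and not in Gas. These ratios were chosen after their values had been seen, and the other ratios computed overlapped between genotypes in both muscles.

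The sequences before the starts of this pair are shown for GRCm38.p6 (RefSeq, both on the - strand). The genotypes did not overlap in Sol for either gene, in opposite directions, and neither gene was called by the quasi-likelihood test. The *Got1* sequence covers chr19:43524606-43524855, and that of *Got2* covers chr8:95888548-95888651, the part of its window that lies outside annotated exons.
Got1: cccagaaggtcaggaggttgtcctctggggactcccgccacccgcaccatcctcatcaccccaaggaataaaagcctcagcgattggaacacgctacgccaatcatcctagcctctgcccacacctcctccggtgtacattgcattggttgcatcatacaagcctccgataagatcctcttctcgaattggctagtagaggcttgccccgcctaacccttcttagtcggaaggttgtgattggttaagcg
Got2: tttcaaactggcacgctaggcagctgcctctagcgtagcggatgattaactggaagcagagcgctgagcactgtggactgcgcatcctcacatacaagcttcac
Neither stretch holds the GC box or the TATA box TATAAA. Both strands of the 250 bases before 11 starts of 9 of the genes were searched for 5 motifs, and *Gpt* was not matched. The GC box was found for *Glul*, *Bckdhb*, *Gpt2* and *Glud1*, and TATAAA, present in 12.4% of all windows, for *Bckdk* and for *Got2*, 142 bases before its start within an exon. The glucocorticoid response element (AGAACA, any 3 bases and TGTTCT, in 0.00913% of all windows), the forkhead motif TGTTTAC (3.17%) and the estrogen-related receptor element TCAAGGTCA (0.387%) were found in 0 of these windows. At such shares 0 was the likely count for any 11 windows, so it does not bear on whether these factors bind near the genes. Sequence farther from the starts was not searched.

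The genes of BCAA catabolism had lower mean levels in LSD1-mKO Sol than in WT Sol, without a call in the quasi-likelihood test. *Bckdha*, the E1α subunit of BCKDH, had 154, 211 and 182 CPM in WT Sol and 77.3, 110, 139, 95.5 and 128 CPM in LSD1-mKO Sol, so that the genotypes did not overlap. In Gas it had 165, 159 and 128 CPM in WT and 124, 124, 182, 151 and 183 CPM in LSD1-mKO, with full overlap. Its log2 fold change was -0.75 ± 0.19 in Sol (adjusted p = 0.0956) and 0.02 ± 0.20 in Gas (adjusted p = 0.973), and the interaction was -0.75 ± 0.29 (adjusted p = 0.944). The Gas value turned to -0.14 without the 2 Gas libraries of high ribosomal protein level. Exons of *Bckdha* overlap those of *B3gnt8* on the other strand by 488 bp, so part of its reads cannot be assigned without strand.

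*Bckdhb*, the E1β subunit, had 39.8, 56.9 and 51.4 CPM in WT Sol and 18.2, 32.5, 30.7, 28.4 and 40.6 CPM in LSD1-mKO Sol. The fifth LSD1-mKO library lay just above the lowest WT library, so the groups overlapped by this library. Its log2 fold change was -0.73 ± 0.22 in Sol (adjusted p = 0.139). In Gas *Bckdhb* ranged from 27.1 to 40.9 CPM in WT (n = 3) and from 26.2 to 42.4 CPM in LSD1-mKO (n = 5), with a log2 fold change of -0.14 ± 0.21. The levels of *Bckdhb* and *Bckdha* kept a ratio of 0.284 ± 0.013 in WT Sol and 0.287 ± 0.044 in LSD1-mKO Sol, per kilobase of exon (SD, n = 3 and 5).

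*Bcat2*, the mitochondrial BCAA transaminase, had 114, 121 and 119 CPM in WT Sol and 79.5, 90.7, 121, 79.0 and 69.4 CPM in LSD1-mKO Sol. The third LSD1-mKO library was at the WT level and the other 4 were below it. In Gas *Bcat2* had 101, 107 and 177 CPM in WT, where the highest value is that of the third library, and 138, 109, 130, 86.7 and 134 CPM in LSD1-mKO. Its log2 fold change was -0.43 ± 0.17 in Sol (adjusted p = 0.263) and -0.10 ± 0.24 in Gas (adjusted p = 0.884), and the Gas value turned to 0.21 without the third WT library. *Bcat2* did not differ between muscles in WT beyond its error (-0.12 ± 0.24, adjusted p = 0.765). Exons of *Bcat2* overlap those of the antisense gene *0610005C13Rik* by 247 bp. The patterns most like that of *Bcat2* over the 16 libraries were those of *Rnf114*, *Pex6* and *Brms1*, with root mean square differences of 0.20, 0.20 and 0.21.

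*Bckdk*, the kinase that phosphorylates and inhibits BCKDH, was near its WT level. It had 164, 224 and 182 CPM in WT Sol and 155, 191, 170, 158 and 192 CPM in LSD1-mKO Sol, and 201, 170 and 267 CPM in WT Gas and 270, 230, 187, 219 and 294 CPM in LSD1-mKO Gas. The groups overlapped in both muscles, at -0.15 ± 0.15 on the log2 scale in Sol and 0.18 ± 0.22 in Gas (adjusted p = 0.678 and 0.761). The ratio of *Bckdk* to *Bckdha*, per kilobase of exon, was 0.548, 0.547 and 0.514 in WT Sol and 1.03, 0.894, 0.630, 0.853 and 0.767 in LSD1-mKO Sol, whereas in Gas it ranged from 0.552 to 1.07 in WT (n = 3) and from 0.528 to 1.12 in LSD1-mKO (n = 5). The Sol groups of this ratio did not overlap, and it was also chosen after the values had been seen. In LSD1-mKO mice *Bckdk* was 1.38-fold lower in Sol than in Gas (-0.47 ± 0.16, adjusted p = 0.0406). The labels do not tie Gas and Sol libraries to one mouse, and pairing the LSD1-mKO libraries by replicate number is an assumption. With the number as a block the call for *Bckdk* was lost (adjusted p = 0.0727) and *Bckdha* was called lower in Sol (-0.48, adjusted p = 0.0323, against 0.0589 without the block). The call for *Bckdk* was also lost with a covariate for the ribosomal protein level (adjusted p = 0.31) and without any 1 of the LSD1-mKO Gas libraries 1, 2 and 5 and Sol libraries 1, 3 and 4 (adjusted p up to 0.0984).

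*Glud1*, the glutamate dehydrogenase that links glutamate to ammonia and 2-oxoglutarate, varied little among the libraries of a group, with coefficients of variation of 1.66% to 8.67%. It had 173, 174 and 168.7 CPM in WT Gas and 157, 159, 156, 163 and 168.6 CPM in LSD1-mKO Gas, so that the groups were separated by a narrow margin. In Sol it had 207.7, 226 and 219 CPM in WT and 165, 194, 197, 182 and 208.1 CPM in LSD1-mKO, where they overlapped by 1 library. LSD1-mKO differed from WT by -0.09 ± 0.15 on the log2 scale in Gas and -0.22 ± 0.13 in Sol (adjusted p = 0.821 and 0.449). Between Sol and Gas it was 0.34 ± 0.14 in WT (adjusted p = 0.097) and 0.24 ± 0.11 in LSD1-mKO (adjusted p = 0.116).

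An interaction over the 16 libraries tested for an unequal effect of LSD1 loss in the 2 muscles. For all 10 genes the difference, Sol minus Gas, was negative, from -0.11 for *Glud1* to -1.04 for *Gpt2*, with a median of -0.36 against 0.01 over all genes. By the quasi-likelihood test 0 of the 10 and 0 of all 13749 genes were called. At an unadjusted p under 0.05, 2 of the 10 passed (*Gpt2* and *Bckdha*), against 4.88% of all genes. DESeq2 called 21 and limma voom 103 genes in the interaction, 0 of the 10 among them. The values share the WT and LSD1-mKO libraries of the comparisons above.

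The other genes of BCAA catabolism, a list of 22 from the mitochondrial transporter to the last steps of propionyl-CoA use, lay on the same side as the BCKDH subunits in Sol. There 19 of the 22 were lower in LSD1-mKO, with a median log2 fold change of -0.35 against -0.01 over all genes, and 10 of them passed an unadjusted p under 0.05, all lower, against 6.84% of all genes. DESeq2 called 3 of the 22, the exact test 2 and voom 3, all lower, where these tools called 193, 175 and 239 of all 13342 genes lower. The quasi-likelihood test called 0 of the 22. The smallest p was that of *Echs1*, a mitochondrial enoyl-CoA hydratase, with 264 ± 37.5 CPM in WT (n = 3) and 173 ± 30.4 CPM in LSD1-mKO Sol (n = 5) and a log2 fold change of -0.63 ± 0.17 (adjusted p = 0.109). Without the second WT Sol library 18 of the 22 were lower and 10 passed the unadjusted threshold, while leaving out the third left 6. Without the first LSD1-mKO Sol library the median was -0.23. In Gas 11 were lower and 11 higher, with a median of 0.02, and 1 passed the unadjusted threshold. This was *Ppm1k*, the phosphatase that activates BCKDH, at 0.43 ± 0.19 (adjusted p = 0.548). Of the markers of adipocytes and macrophages 0 were called in Sol. Of 8 adipocyte markers 7 were lower in LSD1-mKO (median -0.60, sums of 581 to 1271 CPM in WT and 459 to 682 in LSD1-mKO), and 6 of 6 macrophage markers were higher (median 0.44, sums of 118 to 144 and 99.9 to 234 CPM). Their part in these values was not tested.

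**Figure D5:**
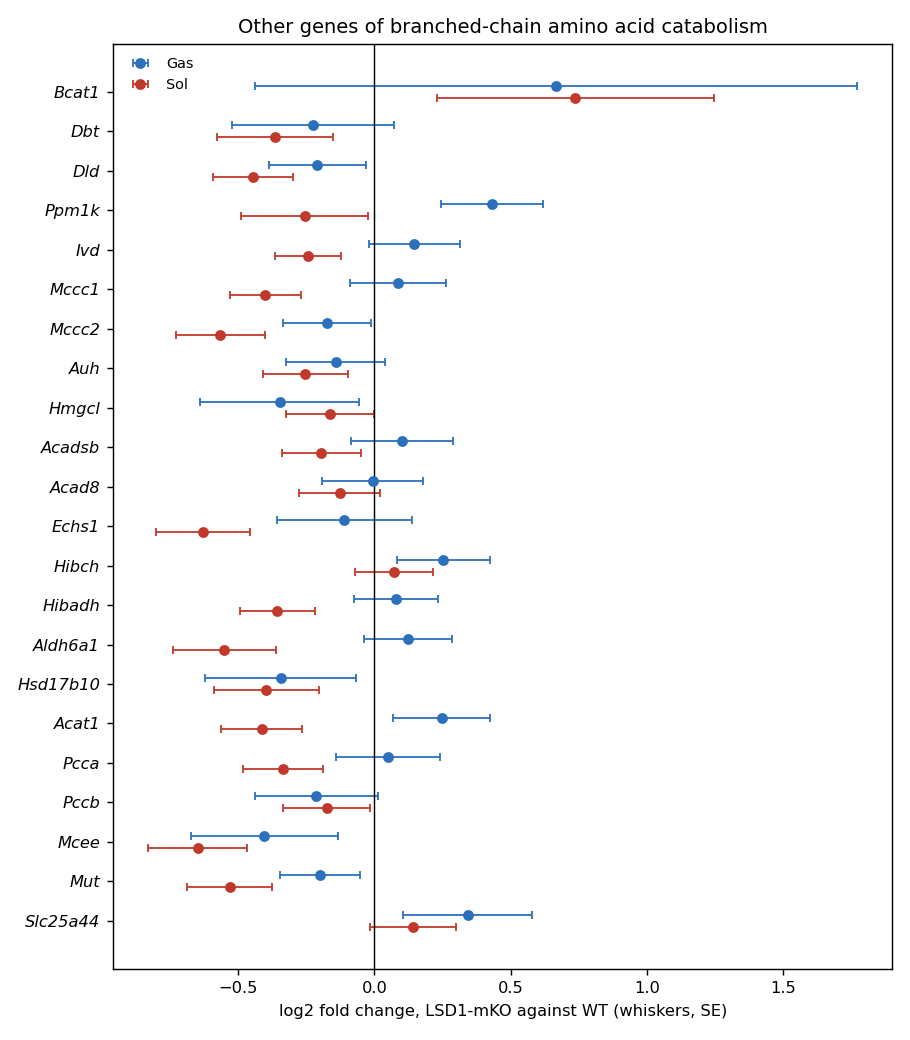
Log2 fold change between LSD1-mKO and WT (points, with SE as whiskers) of the 22 other genes of BCAA catabolism in Gas (blue) and Sol (red). In Sol 19 of the 22 points lie left of 0, against 11 of 22 in Gas, and none passed the adjusted p threshold of 0.05 in the quasi-likelihood test.

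Between muscles of WT mice, 16 of these 22 genes had a higher level in Sol and 6 a lower one, with a median log2 fold change of 0.47 against -0.01 over all genes. Of them 11 were called higher and 0 lower, where 8.75% and 8.25% of all genes were called. Without WT Gas library 1 or 2 or WT Sol library 1 or 3, 6 to 7 were called. In LSD1-mKO mice also 16 had a higher level in Sol, with a median of 0.17, and 5 were called higher and 0 lower, against 12.9% and 11.6% of all genes. The largest called difference in WT was that of *Ppm1k* (1.503 ± 0.25, adjusted p = 0.000698). These 2 comparisons were not tested against each other gene by gene beyond the interaction, in which 0 of the 22 were called. Over the same libraries 8 of 8 slow fiber markers were called higher in Sol in both genotypes, and 7 of 9 fast fiber markers were called lower in WT and 8 of 9 in LSD1-mKO.

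Of 28 further enzymes of amino acid metabolism, 20 were tested. In Sol 1 was called between genotypes and in Gas 0, against 0.967% and 0.0307% of all genes. *Oat*, the ornithine aminotransferase, had 201, 245 and 218 CPM in WT Sol and 106, 111, 120, 139 and 157 CPM in LSD1-mKO Sol. The groups did not overlap, and *Oat* fell by 0.82 on the log2 scale (SE 0.16, adjusted p = 0.0359). DESeq2, voom and the exact test called it too, but the quasi-likelihood call was lost without any 1 of the 3 WT libraries or of the LSD1-mKO Sol libraries 1, 2 and 3, with adjusted p between 0.0674 and 0.143. In Gas it had 287, 266 and 370 CPM in WT and 179, 167, 180, 206 and 273 CPM in LSD1-mKO, with a log2 fold change of -0.61 ± 0.21 (adjusted p = 0.471). In this list 10 of 20 genes had a lower level in LSD1-mKO Sol and 12 of 20 in LSD1-mKO Gas, and 7 of 20 in Sol without the second WT Sol library. Between Sol and Gas of WT mice, *Psat1*, of serine synthesis, was higher in Sol (1.93 ± 0.29, adjusted p = 0.000252) and *Odc1*, of polyamine synthesis, lower (-2.50 ± 0.34, adjusted p = 9.69e-05), and 1 of 21 genes was called higher and 2 lower in all, against 8.75% and 8.25% of all genes. *Psat1* had a low level, 2.48 to 3.40 CPM in WT Gas and 10.5 to 11.4 CPM in WT Sol.

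Of 17 genes for carriers of amino acids across the cell membrane, 13 were higher in LSD1-mKO Gas and 11 in LSD1-mKO Sol, with 0 called in either and medians of 0.25 in Gas and 0.22 in Sol. Leaving out 1 library brought the Gas median down to 0.078 (without LSD1-mKO Gas 3, with 6 of 17 lower) and the Sol median to 0.012 (without WT Sol 2, with 8 of 17 lower). *Slc7a5*, the gene of the leucine exchanger LAT1, had the smallest p in Sol (1.14 ± 0.32, adjusted p = 0.121) and *Slc43a2*, another carrier of neutral amino acids, in Gas (1.86 ± 0.59, adjusted p = 0.426). The level of *Slc7a5* was low, 4.63 to 4.92 CPM in WT Sol and 6.21 to 17.7 CPM in LSD1-mKO Sol. Between muscles of WT mice 4 transporters were called higher and 4 lower in Sol, against 8.75% and 8.25% of all genes, from *Slc38a1*, which takes up glutamine (2.51 ± 0.55, adjusted p = 0.00503), to *Slc7a2*, which takes up cationic amino acids (-3.02 ± 0.58, adjusted p = 0.00183). *Slc38a1* had a low level, 1.15 to 1.83 CPM in WT Gas and 3.37 to 14.1 CPM in WT Sol.

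A list built around the malate-aspartate shuttle, in which *Got1* and *Got2* work, had 6 other tested genes in each muscle. It also held *Slc25a22* and *Slc25a18*, mitochondrial glutamate carriers that are not parts of the shuttle. All 6 had a lower level in LSD1-mKO Sol, 3 of them, *Slc25a22* included, at an unadjusted p under 0.05 (against 6.84% of all genes), with a median of -0.32. Without the second WT Sol library 7 were tested, 2 passed and the median was -0.19. In Gas 4 of the 6 were lower, and the median of -0.21 was -0.064 without the third WT library. None was called, and the smallest p in Sol was that of *Slc25a22*, a mitochondrial glutamate carrier (-0.80 ± 0.22, adjusted p = 0.108), and in Gas that of *Slc25a13* (1.06 ± 0.59, adjusted p = 0.568). In WT mice 6 of 7 had a higher level in Sol than in Gas, and 3 were called higher and 0 lower (against 8.75% and 8.25% of all genes). The largest called difference was that of *Slc25a13* (2.21 ± 0.49, adjusted p = 0.00498). The level of *Slc25a13* was low, 0.523 to 1.25 CPM in WT Gas and 3.41 to 4.33 CPM in WT Sol. Its mean was 1.79 CPM in LSD1-mKO Gas. Of the 6 genes of the purine nucleotide cycle, which releases ammonia from aspartate, 6 were higher in LSD1-mKO Gas and 3 in LSD1-mKO Sol, with 0 called. *Ampd3*, an AMP deaminase, had the smallest p in both muscles (1.55 ± 0.43, adjusted p = 0.398 in Gas and 0.62 ± 0.26, adjusted p = 0.273 in Sol). *Ampd3* was higher in Sol than in Gas of WT mice (1.85 ± 0.43, adjusted p = 0.00678), and *Ampd1*, the isoform of fast muscle, lower (-1.08 ± 0.27, adjusted p = 0.0109). In all 1 of the 6 was called higher there and 1 lower, against 8.75% and 8.25% of all genes.

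Of 10 regulators known to act on amino acid catabolism in muscle, among them the glucocorticoid receptor and KLF15, 0 were called between genotypes. In Sol 9 of 10 were lower in LSD1-mKO, with a median of -0.43 and 4 at an unadjusted p under 0.05, all lower, against 6.84% of all genes. Without the second WT Sol library 8 were lower, 1 passed and the median was -0.25. In Gas 5 were lower. *Atf4*, a factor of the amino acid response, had the smallest p in Sol (-0.54 ± 0.16, adjusted p = 0.129) and *Foxo3*, a factor of atrophy programs, in Gas (1.01 ± 0.59, adjusted p = 0.576). In WT mice *Ppara* was higher in Sol than in Gas (2.01 ± 0.38, adjusted p = 0.00149) and *Cebpd* lower (-2.67 ± 0.63, adjusted p = 0.00782), and 2 of the 10 were called higher and 2 lower in all, against 8.75% and 8.25% of all genes.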

How the data were processed

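Raw counts per gene were used from 16 libraries of poly(A) RNA, read as 75 bp single ends. The authors aligned the reads to mm10 with STAR and, per the file headers, deposited counts from featureCounts 1.5.2 over exons of the iGenomes UCSC annotation, without a strand option. Reads of overlapping genes, antisense genes and pseudogenes are therefore uncertain. The deposited comparisons (fold changes and p-values of the authors' edgeR test) were not used.

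Groups and replicate numbers follow the sample titles. The study counts the Sol transcriptomes by mice, with fewer LSD1-mKO mice than the 5 libraries used here, and the labels do not tie libraries to mice, so p-values measure the spread between libraries, some of which may share a mouse. No pair of replicates agreed within sampling noise. The 10 genes and all gene lists were chosen with earlier results of these data known.

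Counts were filtered with filterByExpr (minimum count 10), scaled by TMM and tested with the two-sided quasi-likelihood F-test of edgeR 4.0.16 in R 4.3.3, with Benjamini-Hochberg adjustment over all genes tested and a call at an adjusted p under 0.05. Genotypes were compared within a muscle. The interaction and the muscles were compared in one fit of the 16 libraries. Standard errors (SE) were taken as the fitted log2 difference over the root of its F statistic. The scripts were tested on simulated counts. Mean log2 CPM of 73 ribosomal protein genes served as a quality measure, and log2 CPM used a prior of 0.5 reads. Lengths, exon overlaps and coordinates come from GENCODE M21 (GRCm38), not the annotation used for counting, and promoter sequences from RefSeq.

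All 10 genes are named. Of each list, genes called between genotypes are named or, where none was, the gene with the smallest p in each muscle, and in Sol against Gas the largest called difference in each direction in WT. *Glul* and *Bcat2* are shown with the 3 genes of the smallest root mean square difference. Same-numbered LSD1-mKO Gas and Sol libraries correlated in their deviations from the group means (r = 0.20 to 0.33 for the 5 pairs), each best with its own number, so the numbers were taken as pairing these muscles. WT and LSD1-mKO Gas libraries 1 and 2, which are different mice, also matched best by number (r = 0.20 and 0.28). The measure therefore does not establish a shared mouse, and the main fits did not use the pairing. Alternatives were RLE scaling, no filter, DESeq2 1.42.0, limma 3.58.1 voom with quality weights, the exact test, the replicate number as a block, the ribosomal protein level as a covariate, each library left out, and the longest transcript as length. Leaving out the libraries of high ribosomal protein level was chosen after seeing the data.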

Additional observations from a re-analysis of the deposited data

How the results depend on the processing

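Of the 10 genes, none was called between genotypes in Gas or in the interaction under any alternative. In Sol, DESeq2 called 2, the exact test 3, voom 4 and the replicate block 2 (*Bckdhb* and *Got1*), and 0 were called without any 1 library. Between genotypes the block joins WT and LSD1-mKO libraries of the same number, which are different mice, so its calls rest on an arbitrary pairing. In LSD1-mKO mice the difference between muscles was called for 9 of the 10 by voom and for 3 to 7 with 1 library left out, and in WT mice for 4 to 5 with 1 left out. The count of all genes called moved widely. In Gas it was 4, and 10 without the filter, 132 by DESeq2, 340 by voom, 104 by the exact test and 1 to 7 with 1 library left out. In Sol it was 129, and 336 without the filter, 605, 730 and 560 by the same tools, 412 with the replicate block, 295 with the ribosomal covariate, 23 without the library of high ribosomal protein level and 11 to 228 with 1 left out. In the interaction it was 0, and 21 by DESeq2, 103 by voom, 1 with the block and 0 to 1 with 1 left out. Between muscles it was 2337 in WT (5599 by voom, 1132 to 2839 with 1 left out) and 3367 in LSD1-mKO (5374 by voom). The cause of these moves was not tested.

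Values near 0 turned direction without any call. Between genotypes in Gas, *Bcat2* became 0.061 by voom, 0.010 with the block, 0.14 with the covariate and 0.17 without the libraries of high ribosomal protein level (-0.24 to 0.21 with 1 left out). *Bckdha* became -0.21, -0.090, -0.0089 and -0.14 in the same order (-0.075 to 0.092), and *Bckdhb* 0.025 with the covariate. In Sol *Glul* became 0.14 without the second WT library (-0.25 to 0.14). Between muscles of WT mice, *Bcat2* became 0.16 by voom, 0.36 with the covariate and 0.14 without those libraries (-0.26 to 0.15), and *Bckdk* 0.37 with the covariate (-0.29 to 0.012). In LSD1-mKO mice *Bckdhb* became 0.040 by voom, 0.20 with the covariate and 0.048 without those libraries (-0.20 to 0.056).

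The numbers of WT and LSD1-mKO libraries do not pair them (r = -0.14 to 0.28 in Gas and 0.0018 to 0.11 in Sol, the best match being another number for 1 of 3 and 2 of 3 pairs), nor do those of WT Gas and WT Sol (r = -0.48 to 0.11). With genotype and number as a block, besides *Bckdk* and *Bckdha*, no other call of the 10 genes between the muscles changed. Length from the longest transcript moved 22 of 40 levels per kilobase by more than their SD and left the first of the 10 genes in each group in place, but changed the order of the others. With 3 WT libraries per muscle, differences of almost 4 times their SE also missed the adjusted threshold (*Bckdha* in Sol, -0.75 ± 0.19).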
